A study of Rattus norvegicus with 16 samples.

Results

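The 37 genes described here carry glucose across the cell membrane, through glycolysis to pyruvate, and on to lactate or into the mitochondria. They were listed by name, and for each gene the probe that names that gene alone and has the highest mean over all 16 arrays was taken. This rule measured 30 of the 37 genes, each by 1 probe, out of 30429 probes in the table and 18166 genes with a single-gene probe. Hk1, Pgam1 and Mpc2 had no probe paired with them in the annotation used here. The probes of Tpi1, Gapdh, Eno1 and Pkm also name other genes, so these 4 genes were left out.

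The samples were cells sorted from the carotid body, the oxygen-sensing organ beside the carotid artery, of Wistar rats aged 9 to 11 weeks. A carotid body suspension was stained for HNK-1, a sulfated sugar epitope of neural adhesion molecules. HNK-1+ cells were collected as neuroblasts, the immature cells of the organ, and HNK-1- cells as glomus cells, its chemoreceptor cells. The rats had breathed ambient air (normoxia) or had spent 3 days in hypoxic chambers, so that 2 populations under 2 conditions gave 4 groups, each with 4 arrays. All groups share the Wistar background, and the organs of the left and right side were mixed. The label glomus cell rests on the lack of HNK-1 staining alone. Each array received cDNA made from 500 pg of total RNA. Whether separate animals stand behind the arrays of a group is not labelled, so p-values measure only the spread between these samples.

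Glucose enters cells through the facilitative transporters of the Slc2a family, is trapped by hexokinases and is committed to glycolysis by phosphofructokinase, whose activity is set in part by fructose-2,6-bisphosphate. Pyruvate is either reduced to lactate, which leaves with a proton through monocarboxylate transporters, or is carried into mitochondria and oxidised by the pyruvate dehydrogenase complex, which the Pdk kinases switch off. Many genes of this route are textbook targets of hypoxia-inducible factors in other cells, and glomus cells are chemoreceptors whose metabolism is tied to their oxygen sensing.

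The deposited values are log2 expression, and all differences below are in log2 units with the limma standard error after ±. The mean array median was near 4.51 for both normoxic groups (4.51 for glomus cells, 4.52 for neuroblasts) and 4.72 and 4.80 for the hypoxic ones, so the typical probe read higher after hypoxia. Among the arrays, replicate 1 of the hypoxic neuroblasts was the least like its group (mean correlation across probes 0.914, at least 0.948 for all others). It held the lowest value of its group for 21 and the highest for 4 of the 30 genes. Of 8 measured glomus cell markers 5 were lower in normoxic neuroblasts, and of 7 neuroblast and HNK-1 markers 4 were higher (Stmn2, Dcx, L1cam and B3gat1). Of all probes 0.828% passed as lower there and 0.996% as higher. In hypoxia none of these 15 markers passed between the populations, where 0.145% of all probes passed as lower and 0.138% as higher. The mean of 12 macrophage markers ranged over the arrays of glomus cells from 4.90 to 6.55 in normoxia and 5.84 to 6.37 in hypoxia, and over those of neuroblasts from 4.08 to 4.55 and 4.54 to 5.02. That of 8 endothelial markers ranged from 5.05 to 6.59 and 5.83 to 6.76 in glomus cells and from 4.12 to 4.67 and 5.09 to 5.34 in neuroblasts, and Cldn5, a tight junction gene of endothelium, was lower in neuroblasts by 3.65 ± 0.34 in normoxia. For 6 fibroblast markers the ranges were 4.82 to 6.48 and 4.94 to 5.69 in glomus cells. In neuroblasts they were 5.535 to 8.917 and 5.07 to 6.79, with the widest range in normoxia. For 5 markers of pericytes and smooth muscle they were 5.95 to 6.64 and 6.36 to 6.77 in glomus cells. In neuroblasts these were 6.31 to 7.46 and 6.12 to 7.21. With hypoxia, 3 of the 8 glomus cell markers fell and 1 rose in glomus cells (list median -0.56), and 3 fell and 3 rose in neuroblasts (0.16). Of the 7 neuroblast and HNK-1 markers 2 fell in glomus cells (-0.32) and 5 in neuroblasts (-0.88). Of the 12 macrophage markers 3 rose in glomus cells (0.61) and 0 passed in neuroblasts (0.48). Of the 8 endothelial markers 2 rose in each population (0.38 and 0.48), and of 6 markers of type II and glial cells, the supporting cells of the organ, 1 rose in glomus cells (0.44) and 3 in neuroblasts (0.74). With hypoxia, 9.5% of all probes passed as lower and 9.37% as higher in glomus cells (median 0.17). In neuroblasts 13.7% passed as lower and 18.4% as higher (median 0.25). The part of these marker shifts in the results below was not tested.

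More of the 30 genes passed between hypoxia and normoxia than between the populations, as was also so over all probes, and they passed in both directions. In glomus cells 6 genes fell (Slc2a3, Pfkm, Pfkfb3, Pfkfb4, Slc16a1 and Pdha1) and 1 rose (Slc16a3), while 9.5% of all probes passed as lower and 9.37% as higher. In neuroblasts 5 genes fell (Slc2a1, Slc2a3, Gpi, Pfkm and Slc16a1) and 4 rose (Aldoa, Pgk1, Ldhb and Slc16a3). There 13.7% and 18.4% of all probes passed, so both counts in neuroblasts lie near the shares of all probes. The median difference of the 30 genes was -0.28 in glomus cells, against 0.17 over all probes, and -0.08 in neuroblasts, against 0.25. Over all genes with a single-gene probe the median was 0.125 and 0.19. The probes of the 30 genes were brighter than most, with a median percentile of 80.39 by mean level. Whether the difference from all probes goes with brightness was not tested. Slc2a3, Pfkm and Slc16a1 fell and Slc16a3 rose in both populations, which is 4 of the 7 genes called in glomus cells and 4 of the 9 called in neuroblasts. The share of all probes that passed in both populations is not given here, so this overlap only describes these genes. No gene passed in opposite directions. In glomus cells all 4 hypoxic values lay above all 4 normoxic ones for 6 of the 30 genes and below for 9. Of all probes 15.2% lay apart in the higher and 11.3% in the lower direction there. In neuroblasts 3 genes lay above and 6 below, against 16.3% and 11.6% of all probes. A lack of overlap with hypoxia, as given for single genes below, was thus common over all probes.

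Counts depended on the scaling of the arrays. With each array centred on its median, 1 gene rose and 9 fell in glomus cells, and 2 rose and 9 fell in neuroblasts. With quantile normalization the counts were 2 and 6 in glomus cells, and 6 and 4 in neuroblasts. Without hypoxic neuroblast replicate 1, 3 rose and 8 fell in glomus cells, since all groups share 1 estimate of the spread, and 7 rose and 6 fell in neuroblasts. The count of rises in neuroblasts was 2 without normoxic neuroblast replicate 1, and that in glomus cells was 2 without hypoxic glomus replicate 3, hypoxic glomus replicate 4 or hypoxic neuroblast replicate 4. A hypoxia response that differs between the populations (the interaction) passed for 0 of the 30 genes by limma, while 0.0263% of all probes passed as higher and 0.0526% as lower. At an unadjusted p under 0.05, 3 genes differed in that test, Pfkp, Pfkfb3 and Pdha1, each with a more positive response in neuroblasts. The share of all probes at that unadjusted level is not given here, so this count is not read as a result about these genes.

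**Figure D1:**
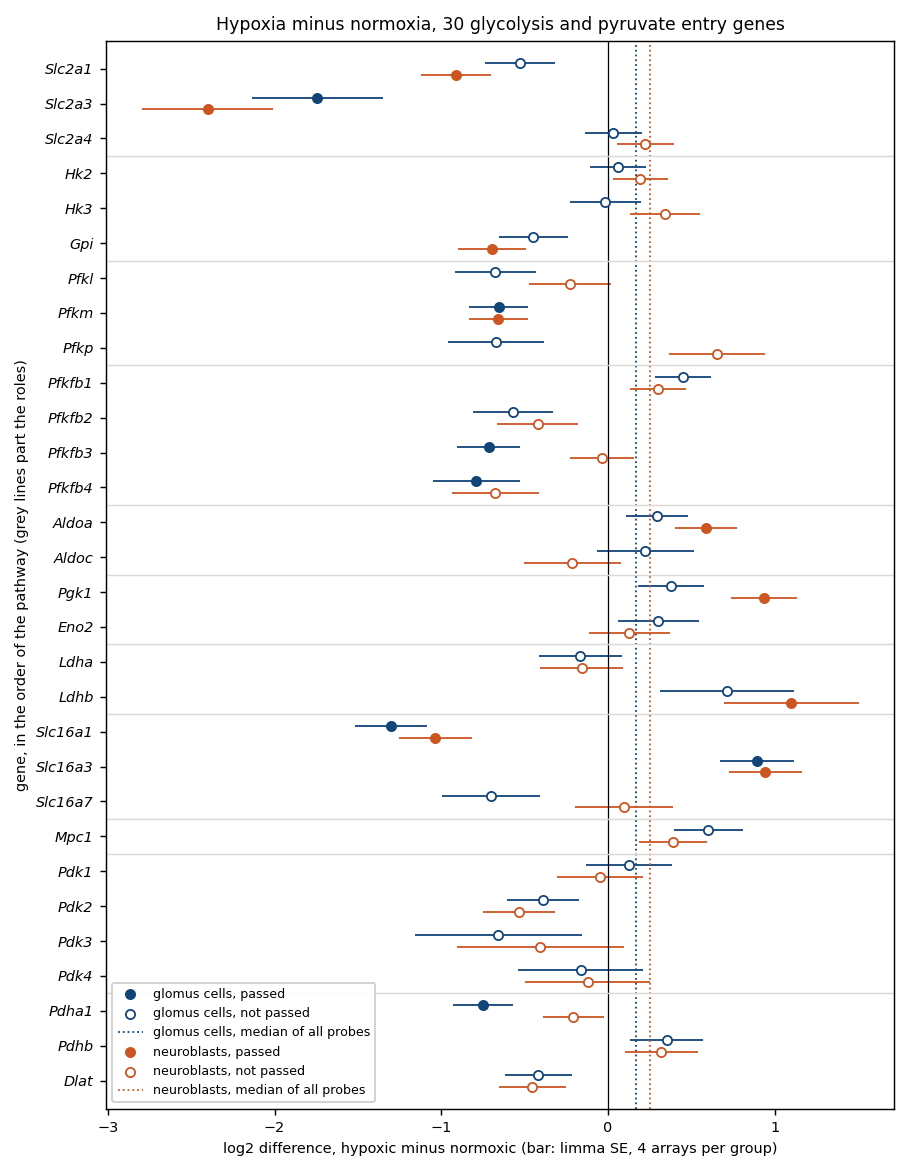
Log2 difference, hypoxic minus normoxic, of the 30 measured genes in glomus cells (blue) and neuroblasts (orange), in pathway order, with the limma standard error as bars and 4 arrays per group. Filled points passed an adjusted p of 0.05, and dotted lines give the median of all 30429 probes, 0.17 and 0.25. Slc2a3 and Slc16a1 lie far to the left in both populations and Slc16a3 to the right in both.

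Between the populations, 1 gene passed in normoxia, Pfkp, which was lower in neuroblasts, while 0.828% of all probes passed as lower and 0.996% as higher. For 6 of the 30 genes all 4 neuroblast values lay below all 4 glomus cell values in normoxia (Hk3, Pfkl, Pfkp, Aldoa, Eno2 and Slc16a7), and for none above, while 4.03% of all probes lay apart in the lower and 3.37% in the higher direction. The median difference of the 30 genes was -0.16, against -0.01 over all probes. In hypoxia 0 of the 30 genes passed by limma, and 0.145% of all probes passed as lower and 0.138% as higher. Pfkp (lower in neuroblasts) and Pfkfb3 (higher) were the 2 of the 30 genes that lay apart there, where 2.21% of all probes lay apart in the lower and 2.27% in the higher direction. Without hypoxic neuroblast replicate 3, Pdk4 passed in hypoxia (1.58, adjusted p = 0.0495).

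**Figure D2:**
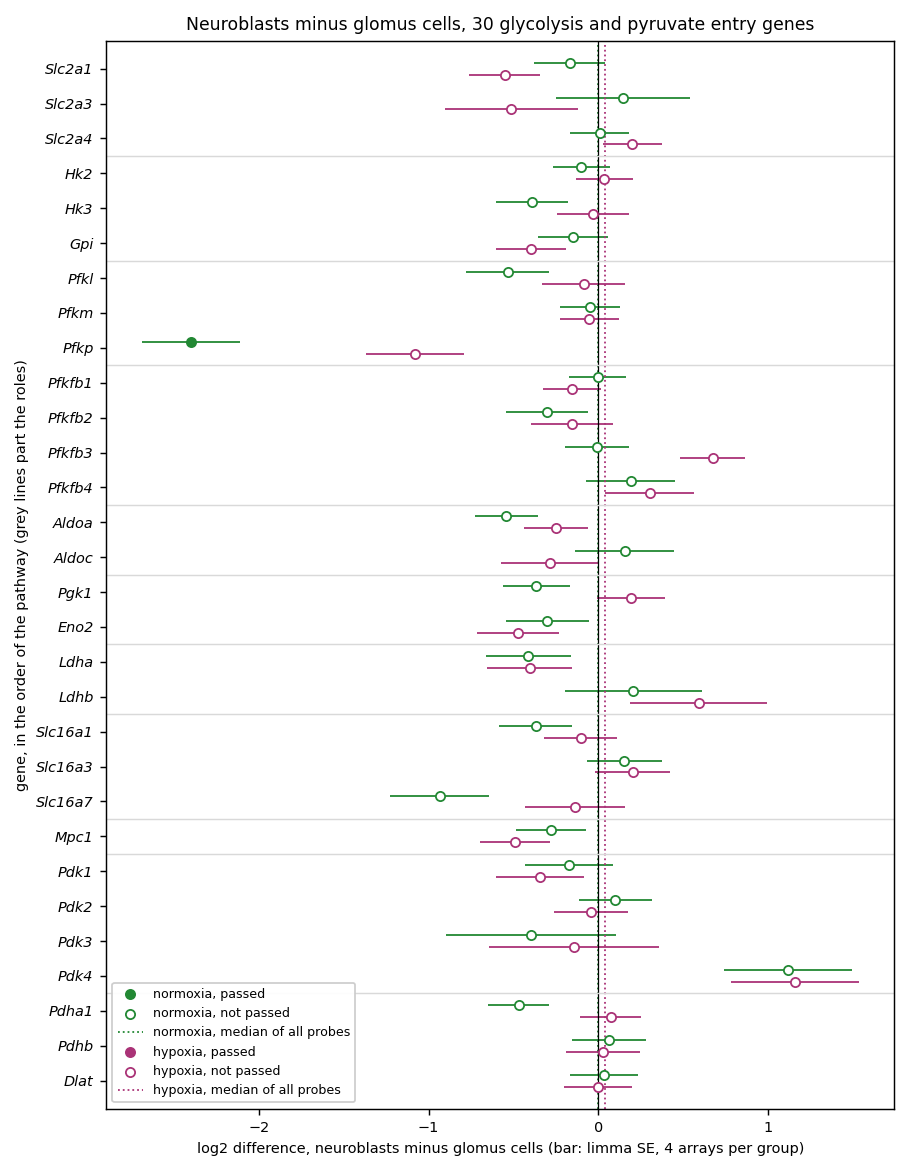
Log2 difference, neuroblasts minus glomus cells, of the 30 measured genes in normoxia (green) and hypoxia (purple), with the limma standard error as bars and 4 arrays per group. The only filled point is Pfkp in normoxia, at -2.40, and dotted lines give the median of all probes.

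Promoters from RefSeq (build GRCr8, 250 bases before to 50 after a gene's start) were searched for the core letters ACGTG and GCGTG of the hypoxia response element and of related E-box and xenobiotic elements, on either strand, where they read CACGT and CACGC. Of the 30 measured genes 27 had at least 1 promoter in the table, 29 in all. ACGTG or its reverse was in 55.2% of these 29 and in 19.3% of all 33469 promoters, and GCGTG or its reverse in 41.4% and 29.7%. Either one was in 69.0% of the 29 and in 41.6% of all. The genes that fell with hypoxia in either population held a match in 6 of 7 promoters, and those that rose in 2 of 5 promoters of 3 genes. Aldoa alone has 3 of these 5 promoters. By gene, Aldoa and Ldhb held a match and Slc16a3 did not. A link between matches and the direction of the response was not tested. A match is a run of letters and no evidence of binding. The promoters of 4 genes are printed from 250 bases before to 30 after the start that the promoter table uses, with every match in capitals. This start is the RefSeq start of the gene for Slc2a1, Slc16a3 and Ldhb, but for Slc16a1 it lies 7104 bases downstream of the gene's RefSeq start. They belong to the genes with a single promoter in the table that had the largest rises (Ldhb and Slc16a3) and falls (Slc16a1 and Slc2a1), so that the letters can be read beside opposite responses. Slc2a3, the gene with the largest fall, and Pgk1 had no entry in the table.
Slc16a1 (chr2:194812410-194812689, + strand): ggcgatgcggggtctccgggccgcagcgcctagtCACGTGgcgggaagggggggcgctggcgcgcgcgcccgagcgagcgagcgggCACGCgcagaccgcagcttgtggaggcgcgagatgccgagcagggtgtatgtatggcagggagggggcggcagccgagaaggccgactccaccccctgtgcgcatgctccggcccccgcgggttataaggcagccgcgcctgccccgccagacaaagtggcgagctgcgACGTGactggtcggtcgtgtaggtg
Slc2a1 (chr5:138002272-138002551, + strand): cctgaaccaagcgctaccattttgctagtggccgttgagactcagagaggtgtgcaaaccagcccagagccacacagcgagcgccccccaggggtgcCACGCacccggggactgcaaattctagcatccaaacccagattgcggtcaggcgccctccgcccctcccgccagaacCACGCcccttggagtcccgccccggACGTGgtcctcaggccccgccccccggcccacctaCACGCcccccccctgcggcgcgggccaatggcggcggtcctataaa
Slc16a3 (chr10:106712078-106712357, + strand): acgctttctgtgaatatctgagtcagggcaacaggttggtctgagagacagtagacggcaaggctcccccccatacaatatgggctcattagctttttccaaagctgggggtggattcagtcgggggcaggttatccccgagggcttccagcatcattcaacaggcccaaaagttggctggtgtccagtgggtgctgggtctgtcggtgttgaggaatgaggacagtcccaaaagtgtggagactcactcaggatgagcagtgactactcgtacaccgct
Ldhb (chr4:177177379-177177658, - strand): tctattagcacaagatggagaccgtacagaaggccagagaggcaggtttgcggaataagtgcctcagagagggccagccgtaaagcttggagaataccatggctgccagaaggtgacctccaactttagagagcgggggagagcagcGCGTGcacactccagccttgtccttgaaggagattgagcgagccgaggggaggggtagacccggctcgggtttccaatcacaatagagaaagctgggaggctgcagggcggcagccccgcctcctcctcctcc
Both genes that fell carry 4 matches each, overlapping ones counted singly. In Slc16a1, the first capitals begin at base 35 of the printed run and hold an overlapping match on each strand, and further matches begin at bases 87 and 256. In Slc2a1 they begin at bases 98, 175, 200 and 235. The Ldhb promoter has 1 match, at base 148, and the Slc16a3 promoter has none in this window.

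Of the glucose transporters, Slc2a3 fell in both populations and Slc2a1 in neuroblasts, while Slc2a4 did not pass. Slc2a3 encodes GLUT3, a high-affinity transporter typical of neurons. It read 10.55, 10.51, 10.50 and 10.37 in normoxic glomus cells and 10.60, 10.24, 10.74 and 10.93 in normoxic neuroblasts. After hypoxia it read 8.52, 8.97, 9.16 and 8.30 in glomus cells and 6.49, 9.04, 8.65 and 8.72 in neuroblasts. Every hypoxic value lay below every normoxic one, and the lowest of all was that of neuroblast replicate 1. The difference was -1.75 ± 0.39 in glomus cells (adjusted p = 0.00454, limma) and -2.40 ± 0.39 in neuroblasts (adjusted p = 0.000214), a level 0.298 and 0.189 times that in normoxia. Without neuroblast replicate 1 the fall in neuroblasts was -1.82 (adjusted p = 1.39e-05). In these sorted samples fewer cells with a transcript and less of it per cell cannot be told apart.

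Slc2a1 encodes GLUT1, the widespread basal transporter. Its values in normoxia were 7.33, 7.30, 7.51 and 7.55 in glomus cells and 7.15, 7.15, 7.33 and 7.38 in neuroblasts. In hypoxia they were 7.01, 6.43, 6.89 and 7.24 in glomus cells and 5.76, 6.51, 6.81 and 6.28 in neuroblasts. Hypoxic values lay below the normoxic ones in both populations, as for 11.3% of all probes in glomus cells and 11.6% in neuroblasts. The fall passed in neuroblasts (-0.91 ± 0.21, adjusted p = 0.00355) but not in glomus cells (-0.53 ± 0.21, adjusted p = 0.0902). In glomus cells it passed with centred arrays (-0.75, adjusted p = 0.0363), with array weights (-0.58, adjusted p = 0.0136) and without hypoxic neuroblast replicate 1 (adjusted p = 0.0355). Slc2a4, the insulin-responsive transporter GLUT4, differed by 0.03 ± 0.17 in glomus cells and 0.23 ± 0.17 in neuroblasts.

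Of the enzymes that trap glucose, Hk2 and Hk3 did not pass in any comparison. Their probes averaged 3.88 and 4.24 over all arrays, below the mean array median of every group, so little can be read from this. Hk1 was not measured. Hk2, the inducible hexokinase, had group means between 3.77 and 3.96, with hypoxia differences of 0.06 ± 0.17 in glomus cells and 0.20 ± 0.17 in neuroblasts. Hk3, a hexokinase of myeloid cells, averaged 4.35 in normoxic glomus cells and 3.96 in normoxic neuroblasts without overlap (-0.39 ± 0.21, adjusted p = 0.657). Gpi, which turns glucose-6-phosphate into fructose-6-phosphate, read 8.77, 8.92, 9.26 and 9.34 in normoxic and 7.81, 8.65, 8.54 and 8.51 in hypoxic neuroblasts. The groups did not overlap, and the fall was -0.70 ± 0.21 (adjusted p = 0.017). It no longer passed without hypoxic neuroblast replicate 1 (-0.51, adjusted p = 0.0506), without normoxic neuroblast replicate 3 or 4, or when only the neuroblast arrays were fitted (adjusted p = 0.0602). In glomus cells Gpi read 9.01, 9.01, 9.42 and 9.44 in normoxia and 8.53, 8.95, 8.93 and 8.68 in hypoxia, again without overlap (-0.45 ± 0.21, adjusted p = 0.145).

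The 3 phosphofructokinase genes, which encode the platelet (Pfkp), muscle (Pfkm) and liver (Pfkl) subunits of the committing enzyme, differed in their patterns. Pfkp read 10.56, 10.57, 11.03 and 10.98 in normoxic glomus cells and 7.86, 8.44, 9.01 and 8.23 in normoxic neuroblasts. Its level in neuroblasts was 0.189 times that in glomus cells (-2.40 ± 0.29, adjusted p = 0.000103), and it passed in all 24 alternative fits. In hypoxia it read 10.02, 10.09, 10.40 and 9.95 in glomus cells and 8.18, 9.46, 8.83 and 9.68 in neuroblasts, still without overlap, but the difference of -1.08 ± 0.29 did not pass (adjusted p = 0.15). The response to hypoxia was -0.67 ± 0.29 in glomus cells (adjusted p = 0.119) and 0.65 ± 0.29 in neuroblasts (adjusted p = 0.0891). The difference between these responses was 1.32 ± 0.41 (adjusted p = 0.44), and 1.61 without hypoxic neuroblast replicate 1 (adjusted p = 0.0897). Without that array Pfkp passed as higher with hypoxia in neuroblasts (0.94, adjusted p = 0.0118) and as lower in glomus cells (adjusted p = 0.0488). Beside the normoxic difference of Pfkp, 5 of 12 macrophage markers and 1 of 8 endothelial markers were also lower in neuroblasts, with median differences of -0.97 and -1.07 for the lists. Of all probes 0.828% passed as lower there. Mean levels of fibroblast markers (6.51 against 5.52) and of pericyte and smooth muscle markers (6.66 against 6.27) were higher in normoxic neuroblasts. So were those of type II and glial markers (4.78 against 4.38). Any part of such cells in the Pfkp difference was not tested.

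Pfkm fell in both populations. In glomus cells it read 6.91, 7.08, 7.41 and 6.95 in normoxia and 6.15, 6.18, 6.70 and 6.70 in hypoxia (-0.66 ± 0.18, adjusted p = 0.0142). In neuroblasts it read 6.85, 7.01, 7.23 and 7.06 in normoxia and 6.20, 6.42, 6.54 and 6.36 in hypoxia (-0.66 ± 0.18, adjusted p = 0.00961). No hypoxic value reached a normoxic one. The call in glomus cells ended without normoxic glomus replicate 3, hypoxic glomus replicate 1 or hypoxic glomus replicate 2 (highest adjusted p = 0.0607), and that in neuroblasts with quantile normalization (-0.41, adjusted p = 0.0795). Pfkl read 6.73, 7.08, 6.78 and 7.27 in normoxic and 5.91, 7.10, 5.89 and 6.26 in hypoxic glomus cells, and 6.37, 6.05, 6.58 and 6.72 in normoxic and 6.03, 6.07, 6.16 and 6.55 in hypoxic neuroblasts. It did not pass in any comparison, with -0.68 ± 0.25 for hypoxia in glomus cells (adjusted p = 0.0648), where 1 hypoxic array overlapped the normoxic range.

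**Figure D3:**
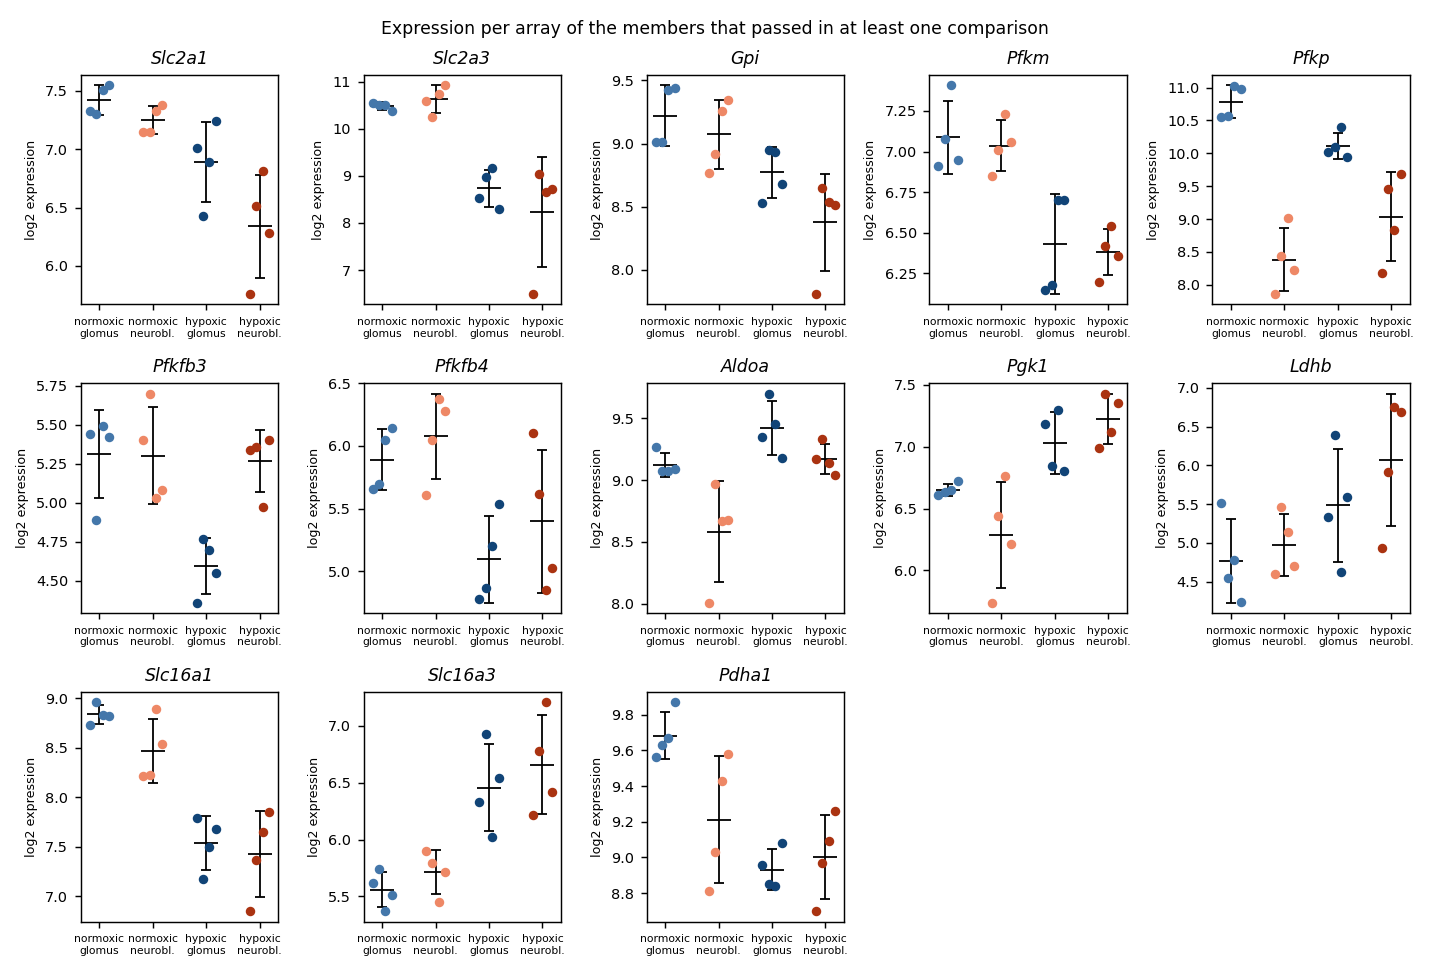
Log2 expression per array of the 13 genes that passed in at least 1 comparison, with the mean and SD of each group of 4 as black bars. Each panel has its own axis. Slc2a3 and Slc16a1 drop from normoxic to hypoxic arrays in both populations, Slc16a3 climbs in both, and Pfkp parts the populations.

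Fructose-2,6-bisphosphate, a strong activator of phosphofructokinase, is made and removed by the enzymes of the 4 Pfkfb genes. Of these, Pfkfb3 and Pfkfb4 fell in hypoxic glomus cells and none passed in neuroblasts. Pfkfb3, the isoform with the highest ratio of kinase to phosphatase activity, read 5.44, 4.89, 5.49 and 5.42 in normoxic and 4.36, 4.77, 4.70 and 4.55 in hypoxic glomus cells. The fall was -0.72 ± 0.19 (adjusted p = 0.0132), and no values overlapped. In neuroblasts Pfkfb3 read 5.40, 5.70, 5.03 and 5.08 in normoxia and 5.34, 5.36, 4.97 and 5.40 in hypoxia (-0.04 ± 0.19, 95% interval -0.44 to 0.37). The responses of the populations differed by 0.68 ± 0.27, which did not pass (adjusted p = 0.682). Pfkfb4 read 5.66, 5.70, 6.05 and 6.14 in normoxic and 4.78, 4.87, 5.20 and 5.54 in hypoxic glomus cells. Its fall there, -0.79 ± 0.26 (adjusted p = 0.0428), lay near the threshold and passed in 8 of 16 fits that left out 1 array, with adjusted p from 0.0165 to 0.121. It ended without normoxic glomus replicate 2, 3 or 4, without hypoxic glomus replicate 1, 2 or 3, and without normoxic neuroblast replicate 2 or 4. In neuroblasts Pfkfb4 differed by -0.68 ± 0.26 (adjusted p = 0.0559), and by -0.91 without hypoxic neuroblast replicate 1 (adjusted p = 0.00998). Pfkfb1 differed by 0.45 ± 0.17 and Pfkfb2 by -0.57 ± 0.24 in glomus cells (adjusted p = 0.0741 and 0.114), and neither passed in neuroblasts.

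In the lower part of glycolysis the genes that passed rose, and they did so in neuroblasts. Aldoa encodes the main aldolase, which splits fructose-1,6-bisphosphate. It read 8.01, 8.97, 8.67 and 8.68 in normoxic and 9.17, 9.33, 9.14 and 9.04 in hypoxic neuroblasts. All hypoxic values lay above the normoxic ones (0.59 ± 0.19, adjusted p = 0.0246). This rise was 0.31 with centred arrays (adjusted p = 0.3) and 0.72 with quantile normalization (adjusted p = 0.0135), and it ended without normoxic neuroblast replicate 1 or hypoxic neuroblast replicate 2 and when only the neuroblast arrays were fitted (adjusted p = 0.0856). In glomus cells Aldoa read 9.27, 9.07, 9.07 and 9.09 in normoxia and 9.35, 9.70, 9.45 and 9.18 in hypoxia (0.30 ± 0.19, adjusted p = 0.293). Aldoc, the aldolase of neural tissue, read 6.67, 6.32, 6.59 and 6.60 in normoxic and 6.80, 6.83, 6.69 and 6.76 in hypoxic glomus cells. In neuroblasts it read 6.08, 6.62, 7.02 and 7.08 in normoxia and 5.43, 6.91, 6.47 and 7.13 in hypoxia, and it did not pass in any comparison.

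Pgk1 encodes phosphoglycerate kinase, the first step of glycolysis that makes ATP. Its values in neuroblasts were 5.74, 6.44, 6.76 and 6.21 in normoxia and 6.99, 7.43, 7.12 and 7.35 in hypoxia. The groups did not overlap, the rise was 0.94 ± 0.20 (adjusted p = 0.00194), and it passed in all 24 alternative fits, with 0.65 for centred arrays (adjusted p = 0.0438). In glomus cells it read 6.61, 6.63, 6.65 and 6.72 in normoxia and 7.18, 6.84, 7.30 and 6.80 in hypoxia, also without overlap, and the difference of 0.38 ± 0.20 did not pass (adjusted p = 0.204). Eno2, the neuronal enolase, differed by 0.30 ± 0.24 in glomus cells, where its values lay apart, and by 0.13 ± 0.24 in neuroblasts. Without hypoxic neuroblast replicate 1, which read 8.60 against 9.76 to 9.96 on the other arrays, the difference of Eno2 in neuroblasts was 0.45 (adjusted p = 0.0438).

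Lactate dehydrogenase is a tetramer of the subunits of Ldha, which predominates in lactate-producing tissue, and Ldhb, which predominates in the heart and other oxidative tissue. Ldha read 8.22, 8.43, 7.75 and 8.04 in normoxic and 7.83, 7.71, 8.75 and 7.49 in hypoxic glomus cells. In neuroblasts it read 7.69, 7.75, 7.66 and 7.69 in normoxia and 7.13, 8.01, 7.69 and 7.33 in hypoxia. These ranges overlapped, and Ldha did not pass in any comparison. With hypoxia it differed by -0.17 ± 0.25 in glomus cells (95% interval -0.69 to 0.36) and -0.16 ± 0.25 in neuroblasts (-0.68 to 0.37). Ldhb read 4.60, 5.46, 5.14 and 4.70 in normoxic and 4.93, 5.92, 6.76 and 6.69 in hypoxic neuroblasts. Its rise there of 1.10 ± 0.40 passed narrowly (adjusted p = 0.046), with 1 hypoxic array inside the normoxic range, hypoxic neuroblast replicate 1. It was 1.48 without that array (adjusted p = 0.00688), it passed in 6 of 16 fits without 1 array, and it did not pass with centred arrays (0.82, adjusted p = 0.189) or quantile normalization (adjusted p = 0.117). Leaving out normoxic glomus replicate 2 or 3, normoxic neuroblast replicate 1, 3 or 4, hypoxic glomus replicate 1 or 4, or hypoxic neuroblast replicate 2, 3 or 4 ended the call (highest adjusted p = 0.124). In glomus cells Ldhb read 5.51, 4.55, 4.78 and 4.24 in normoxia and 5.33, 6.39, 4.63 and 5.59 in hypoxia (0.72 ± 0.40, adjusted p = 0.236).

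Of the 3 measured monocarboxylate transporters, Slc16a1 fell and Slc16a3 rose with hypoxia in both populations, and Slc16a7 passed in neither. Slc16a1 encodes MCT1, a transporter of moderate lactate affinity found in most tissues. It read 8.73, 8.96, 8.83 and 8.82 in normoxic and 7.79, 7.17, 7.50 and 7.68 in hypoxic glomus cells. In neuroblasts it read 8.21, 8.22, 8.89 and 8.54 in normoxia and 6.85, 7.37, 7.65 and 7.85 in hypoxia. Hypoxic and normoxic values did not overlap in either population. The fall was -1.30 ± 0.22 in glomus cells (adjusted p = 0.000467) and -1.04 ± 0.22 in neuroblasts (adjusted p = 0.00172), 0.406 and 0.488 times the normoxic level, and it passed in all 24 alternative fits of each. Its printed promoter is the one that opens with overlapping matches on both strands.

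Slc16a3 encodes MCT4, the lactate exporter typical of highly glycolytic cells. In normoxia it read 5.62, 5.74, 5.37 and 5.51 in glomus cells and 5.90, 5.79, 5.45 and 5.71 in neuroblasts. In hypoxia it read 6.33, 6.93, 6.02 and 6.54 in glomus cells and 6.22, 6.78, 7.21 and 6.42 in neuroblasts. All 8 hypoxic values exceeded all 8 normoxic ones. The rise was 0.90 ± 0.22 in glomus cells (adjusted p = 0.00824) and 0.95 ± 0.22 in neuroblasts (adjusted p = 0.00394), 1.86 and 1.93 times the normoxic level. It passed in all 24 alternative fits of each, with 0.68 and 0.66 for centred arrays (adjusted p = 0.0461 and 0.0399). Slc16a7, the high-affinity transporter MCT2, averaged 5.18 in normoxic glomus cells and 4.24 in normoxic neuroblasts without overlap (-0.94 ± 0.29, adjusted p = 0.159), and passed only with array weights (-1.02, adjusted p = 0.0345). With hypoxia it differed by -0.70 ± 0.29 in glomus cells (adjusted p = 0.108) and 0.10 ± 0.29 in neuroblasts (adjusted p = 0.808).

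Entry of pyruvate into mitochondria is represented by Mpc1, a subunit of the mitochondrial pyruvate carrier, the 4 pyruvate dehydrogenase kinase genes and 3 subunits of the pyruvate dehydrogenase complex. Pdha1, the catalytic E1 alpha subunit that these kinases phosphorylate, read 9.56, 9.63, 9.67 and 9.87 in normoxic and 8.96, 8.85, 8.84 and 9.08 in hypoxic glomus cells. The fall was -0.75 ± 0.18 (adjusted p = 0.00712), with no overlap. In neuroblasts it read 8.81, 9.03, 9.43 and 9.58 in normoxia and 8.70, 8.97, 9.09 and 9.26 in hypoxia (-0.21 ± 0.18, adjusted p = 0.371). The responses of the populations differed by 0.54 ± 0.26 (adjusted p = 0.752). Pdhb, the E1 beta subunit, read 7.95, 8.16, 8.01 and 7.77 in normoxic and 8.10, 8.51, 7.98 and 8.71 in hypoxic glomus cells, and 7.99, 8.09, 8.08 and 7.97 in normoxic and 7.75, 8.22, 8.56 and 8.88 in hypoxic neuroblasts. It did not pass (0.35 ± 0.22 and 0.32 ± 0.22). Dlat, the E2 core subunit, differed by -0.42 ± 0.20 in glomus cells (adjusted p = 0.162) and -0.46 ± 0.20 in neuroblasts (adjusted p = 0.0876).

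Mpc1 narrowly missed the threshold in glomus cells. It read 7.49, 7.70, 7.74 and 7.84 in normoxia and 8.47, 8.40, 8.26 and 8.05 in hypoxia, without overlap (0.60 ± 0.21, adjusted p = 0.0502), and passed, among others, with quantile normalization (0.74, adjusted p = 0.00229) and without hypoxic neuroblast replicate 1 (adjusted p = 0.00683). In neuroblasts it differed by 0.39 ± 0.21 (adjusted p = 0.147), and by 0.63 without that array (adjusted p = 0.00796). Pdk1, the kinase known as a hypoxia-inducible factor target, read 5.70, 5.95, 5.44 and 5.09 in normoxic and 5.63, 5.70, 5.44 and 5.92 in hypoxic glomus cells (0.13 ± 0.26, 95% interval -0.42 to 0.67). In neuroblasts it read 5.33, 5.52, 5.42 and 5.22 in normoxia and 4.44, 5.34, 5.60 and 5.93 in hypoxia (-0.05 ± 0.26, -0.59 to 0.50). Pdk2 differed by -0.39 ± 0.22 in glomus cells and by -0.53 ± 0.22 in neuroblasts (adjusted p = 0.0673), where it passed without hypoxic neuroblast replicate 1 (-0.73, adjusted p = 0.00983). Pdk3 had the widest spread among arrays in hypoxic glomus cells (SD 1.00) and did not pass. Pdk4, the kinase induced by fasting and fatty acids, averaged 4.60 in glomus cells and 5.72 in neuroblasts in normoxia, and 4.44 and 5.59 in hypoxia. These differences of 1.12 ± 0.37 and 1.16 ± 0.37 did not pass (adjusted p = 0.212 and 0.262).

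For 8 pairs of related genes the difference between their probes was taken within each array, which removes a shift common to the whole array, and its change between groups was tested by a two-sided exact permutation test. With 4 arrays against 4 the smallest possible p is 0.0286. In 10 of the 32 tests the 2 groups did not overlap and the exact p was 0.0286. With only 10 of the 32 tests at this limit it adjusted to 0.0915 by Benjamini-Hochberg, so none passed. Over 32 tests a pair at the limit can pass only if many others reach it too. The lack of a pass thus says little about any 1 pair. Slc16a3 minus Slc16a1 was 2.20 ± 0.30 higher in hypoxic than in normoxic glomus cells and 1.98 ± 0.34 higher in hypoxic than in normoxic neuroblasts. For Slc2a3 minus Slc2a1 the hypoxic minus normoxic value was -1.22 ± 0.35 in glomus cells and -1.49 ± 0.43 in neuroblasts. Pfkp minus Pfkm was lower in normoxic neuroblasts than in normoxic glomus cells (-2.35 ± 0.20), and its hypoxic minus normoxic value in neuroblasts was 1.31 ± 0.36. For Pfkp minus Pfkl the difference between the populations in normoxia was -1.87 ± 0.31, and for Aldoa minus Aldoc it was -0.70 ± 0.18. For Ldha minus Ldhb the hypoxic minus normoxic value was -1.26 ± 0.44 in neuroblasts, and for Pdha1 minus Pdhb it was -1.10 ± 0.20 in glomus cells. Since none of these tests passed after adjustment, the values describe these arrays, and they do not say which member of a pair moved.

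**Figure D4:**
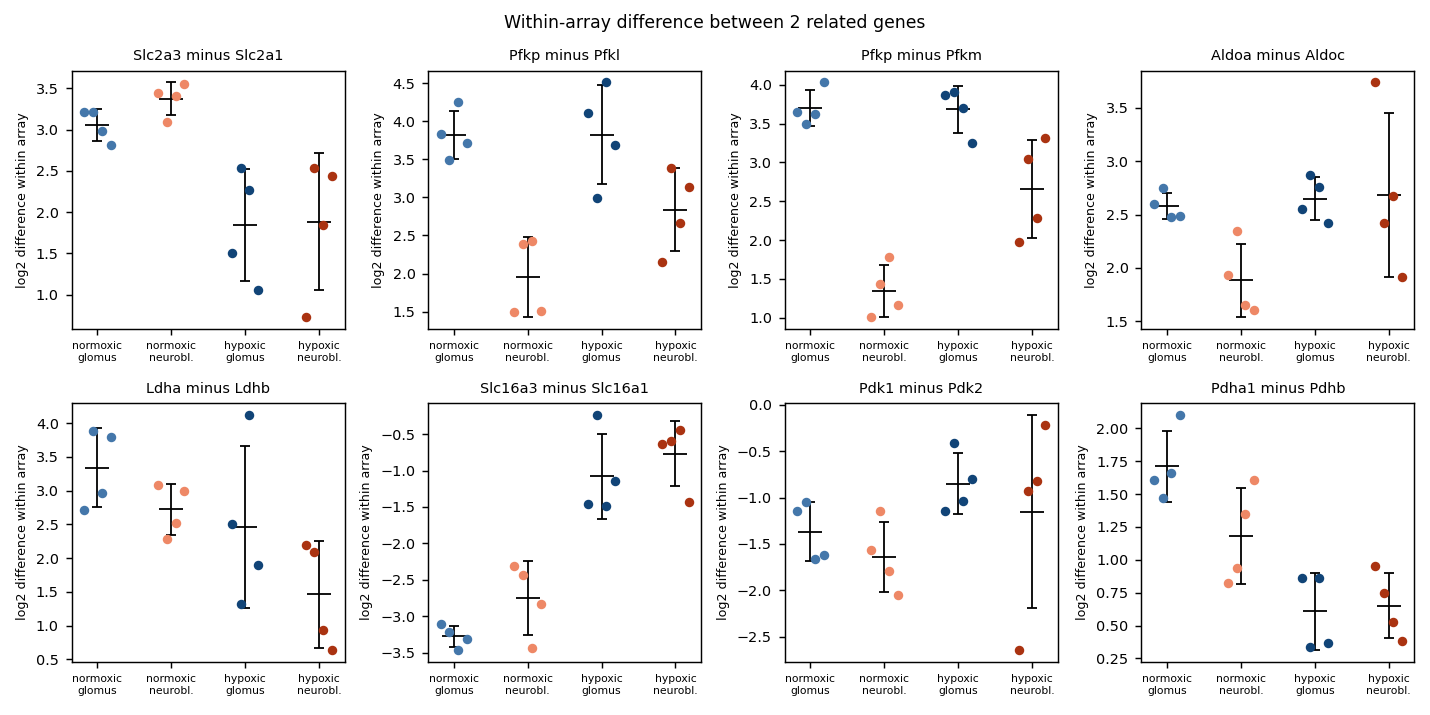
Difference between the log2 values of related genes within each array, for 8 pairs in the 4 groups, with the mean and SD of 4 arrays as black bars. The height depends on both probes, and only the shift between groups is comparable. Slc16a3 minus Slc16a1 is higher on all 8 hypoxic than on all 8 normoxic arrays, and Pfkp minus Pfkm is lower in normoxic neuroblasts than in normoxic glomus cells.

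Other genes of the pathway gave the context. Of 69 measured genes in 7 further lists, 17 fell and 4 rose with hypoxia in glomus cells, where 9.5% and 9.37% of all probes passed as lower and higher. In neuroblasts 20 fell and 6 rose, where 13.7% and 18.4% of all probes passed. The rises depended on the scaling: with centred arrays 19 fell and 0 rose in glomus cells and 23 fell and 0 rose in neuroblasts, and with quantile normalization the counts were 16 and 4, and 15 and 3. Among 15 measured genes of a list of transcription regulators of glycolysis and related genes, 8 fell and 1 rose with hypoxia in glomus cells. In neuroblasts 8 of them fell and 0 rose. The list's median was -0.86 and -0.78, against 0.17 and 0.25 over all probes. The list mixes subunits of hypoxia-inducible factors with the hydroxylases that act on them, so its median gives no direction for glycolysis. Epas1, which encodes the oxygen-regulated subunit HIF-2 alpha and is abundant in glomus cells, fell in both populations, with -1.57 ± 0.20 in glomus cells and -1.96 ± 0.20 in neuroblasts (adjusted p = 5.23e-05 and 2.83e-06). Arnt, the shared partner subunit, fell likewise (-1.08 ± 0.26 and -1.45 ± 0.26). Txnip, which restrains glucose uptake by GLUT1, fell in both, with -1.81 ± 0.49 in glomus cells and -3.56 ± 0.49 in neuroblasts (adjusted p = 0.0154 and 4.58e-05). Of the oxygen-dependent prolyl hydroxylases, Egln2 fell in both (-0.88 ± 0.21 and -0.94 ± 0.21), and Egln1 rose in glomus cells (1.12 ± 0.37, adjusted p = 0.0448). The Egln1 call ended with centred arrays (0.90, adjusted p = 0.168) and passed in 5 of 16 fits without 1 array. Hif1a, the other oxygen-regulated subunit, fell in both (-0.84 ± 0.25 and -1.01 ± 0.25), but in glomus cells not with quantile normalization (-0.67, adjusted p = 0.0762) or without normoxic glomus replicate 3, hypoxic glomus replicate 1 or hypoxic glomus replicate 4. Egln1 and Hif1a were named after their values were seen. In normoxia Myc was higher in neuroblasts by 1.60 ± 0.18 (adjusted p = 7.1e-05).

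Among 15 other sugar and lactate transport genes, 2 fell and 0 rose in glomus cells, and 6 fell and 1 rose in neuroblasts. Of all probes 9.5% passed as lower and 9.37% as higher in glomus cells, and 13.7% and 18.4% in neuroblasts. The list's median was 0.02 and 0.18, against 0.17 and 0.25 over all probes, and the 2 of 15 in glomus cells lie close to the 9.5% of all probes that passed as lower. Slc2a8, an intracellular glucose transporter, fell in both (-0.88 ± 0.22 and -0.81 ± 0.22). Bsg, named after its values were seen, encodes the chaperone that brings MCT1 and MCT4 to the cell surface. Its neuroblast values averaged 8.02 in normoxia and were 5.56, 7.87, 7.20 and 7.41 in hypoxia, a difference of -1.01 ± 0.37 that passed narrowly (adjusted p = 0.0447). Without hypoxic neuroblast replicate 1, the lowest array, the difference was -0.53 and did not pass (adjusted p = 0.133). It passed in 4 of 16 fits without 1 array and not with quantile normalization (adjusted p = 0.127). Of 10 genes of gluconeogenesis and the glycerol phosphate and malate shuttles, 3 fell and 2 rose in each population, with medians of 0.05 and 0.10. With centred arrays 3 fell and 0 rose in each. Pc, the mitochondrial enzyme that carboxylates pyruvate, fell in both populations, with -1.69 ± 0.25 in glomus cells and -1.30 ± 0.25 in neuroblasts (adjusted p = 0.000204 and 0.000965), and it was lower in normoxic neuroblasts than in normoxic glomus cells (-1.15 ± 0.25, adjusted p = 0.024). This last call ended with centred arrays (adjusted p = 0.0534) and passed in 10 of 16 fits without 1 array. Mdh1, the cytosolic malate dehydrogenase, rose by 0.93 ± 0.22 in glomus cells (adjusted p = 0.0063) and 0.60 ± 0.22 in neuroblasts (adjusted p = 0.0456). Neither rise passed with centred arrays (0.71, adjusted p = 0.0666, and 0.32, adjusted p = 0.426). In neuroblasts it passed in 1 of 16 fits without 1 array, that without hypoxic neuroblast replicate 1 (0.86, adjusted p = 0.000859).

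Of 7 other pyruvate dehydrogenase complex genes, 2 fell and 1 rose in glomus cells and 1 fell in neuroblasts, beside the same shares of all probes. Pdpr, a regulatory subunit of the phosphatase that reactivates the complex, fell in both (-1.11 ± 0.20 and -1.42 ± 0.20). Dld, the shared E3 subunit, was lower in normoxic neuroblasts than in normoxic glomus cells by 1.21 ± 0.22 and fell with hypoxia in glomus cells (-0.82 ± 0.22), narrowly missing the threshold without hypoxic glomus replicate 4 (adjusted p = 0.0509). Among 8 other glycolytic isozymes, the pyruvate kinase gene Pklr fell in glomus cells (-0.79 ± 0.21), though not without normoxic glomus replicate 3 (adjusted p = 0.0531). Bpgm, which makes 2,3-bisphosphoglycerate, and Gapdhs rose in neuroblasts (0.96 ± 0.23 and 0.69 ± 0.17). With centred arrays neither passed (0.67, adjusted p = 0.0654, and 0.41, adjusted p = 0.138), and with quantile normalization Bpgm alone of the pair did (1.22, adjusted p = 5.33e-05, against 0.34, adjusted p = 0.212). Of 8 glycogen genes, Pygb, the brain glycogen phosphorylase, fell in both populations (-1.08 ± 0.21 and -0.79 ± 0.21), in neuroblasts not with quantile normalization (adjusted p = 0.0844). Of 6 pentose phosphate genes 0 passed by limma in any comparison, and 0 had an unadjusted p under 0.05.

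**Figure D5:**
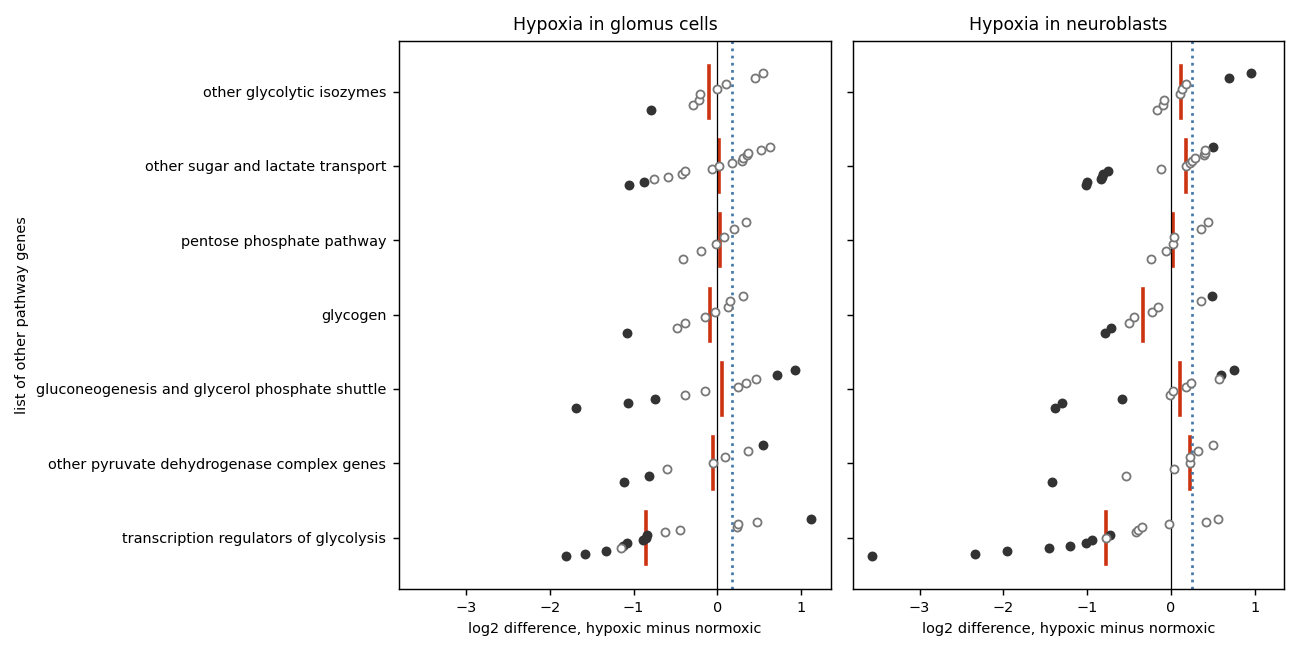
Log2 difference, hypoxic minus normoxic, of the measured genes of 7 other lists of the pathway in glomus cells (left) and neuroblasts (right). Filled points passed, red bars are list medians and the dotted line is the median of all probes. The list labelled transcription regulators, which also holds related genes such as hydroxylases, has medians of -0.86 and -0.78, below the dotted lines at 0.17 and 0.25.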

How the data were processed

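Per the submitters' processing notes, the authors used Transcriptome Analysis Console for the Affymetrix rat gene arrays. For its version, the background correction and the normalization, the sources used here give nothing. The deposited values are taken as log2 expression, inferred from their range (0.87 to 13.33). Of 30429 probes, 18511 name 1 gene, 575 several and 11343 none.

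All probes entered a limma 3.58.1 fit (lmFit and eBayes in R 4.3.3, 1 mean per group, 12 residual degrees of freedom) with no filter. The script was checked on simulated data. Adjusted p-values are two-sided and follow Benjamini-Hochberg across the 30429 probes of each comparison, with a gene counted as passed below 0.05. The number of arrays limits the precision. Pairs of genes were tested in Python 3.11.15 with scipy 1.17.1.

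The genes and lists were chosen with earlier results of these data known. Values per array are given for genes that passed (up to 8 per comparison, by smallest p) and for the pairs described. Genes named from each other list were picked from the 4 with the smallest p in a comparison, apart from those said to be named later. Not all of these 4 are described, and Slc16a10, G6pc3 and Prkaa1 are among those left out. The normoxic comparison of the populations and both hypoxia comparisons share the normoxic arrays. Alternatives were centring, quantile normalization, a filter on dim probes, a variance trend, array weights, a fit to the compared groups alone, a replicate block, probe averages, a stricter threshold and leaving out each array. For single genes of the other lists, centring, quantile normalization and leaving out each array were chosen after seeing the data.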

Additional observations from a re-analysis of the deposited data

Results flagged for a closer look

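In 8 of 120 groups of 4 arrays (30 genes in 4 groups), 1 array lay so far from the other 3 that its gap to the nearest exceeded Dixon's 95% limit for the group's range. Chance flags about 1 in 20 groups. In hypoxic neuroblasts, replicate 1 was low for Slc2a3 (6.49, others 8.65 to 9.04), Gpi (7.81, others 8.51 to 8.65) and Eno2 (8.60, others 9.76 to 9.96), and replicate 3 for Pfkfb3 (4.97, others 5.34 to 5.40). In normoxic glomus cells, replicate 1 was high for Slc2a4 (5.01, others 4.45 to 4.51) and Aldoa (9.27, others 9.07 to 9.09), and replicate 2 was low for Pfkfb3 (4.89, others 5.42 to 5.49). In normoxic neuroblasts, replicate 1 was high for Pfkfb2 (6.03, others 5.24 to 5.37).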

How the results depend on the processing

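Of 3570 values of single genes under the alternatives, 372 passed again in the same direction, 36 no longer passed, 52 came to pass, and 0 that passed under either setting turned direction. Of the others, which passed under neither, 2947 kept their sign and 163 changed it. For the genes that passed, the cause of a lost call was not tested. Genes higher with hypoxia in glomus cells numbered 1, and 2 with quantile normalization, without the dimmest 25% of probes or with the replicate block, 3 when only the arrays compared were fitted, 4 with array weights and 1 to 3 without 1 array. Genes lower there numbered 6, and 12 with array weights, 3 at an adjusted p under 0.01, 9 with centred arrays and 4 to 8 without 1 array. In neuroblasts 4 were higher, and 2 with centred arrays, when only the arrays compared were fitted or at an adjusted p under 0.01, 6 with quantile normalization or array weights and 2 to 7 without 1 array. Genes lower there numbered 5, and 9 with centred arrays and 4 to 6 without 1 array. Between the populations, 2 genes rather than 1 were lower in normoxia with array weights, and 0 to 1 were higher in hypoxia without 1 array. Of 24 same-numbered pairs of arrays, 8 deviated together with a correlation over 0.1 (range -0.105 to 0.205). Differently numbered pairs were not compared with these, so whether the replicate numbers pair the arrays was not tested. With the replicate block, 2 genes were higher and 5 lower in glomus cells (Mpc1 gained, Pfkfb4 lost) and 3 higher and 6 lower in neuroblasts (Ldhb lost, Dlat gained). Each measured gene has 1 probe, so averaging probes changed nothing. Precision is limited by 4 arrays per group.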
